A study of Mus musculus with 24 samples.

Results

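The genes described here are the mouse Fc gamma receptors Fcgr1, Fcgr2b, Fcgr3 and Fcgr4, their signalling chain Fcer1g and the kinase Syk. They were taken by symbol, through Entrez identifiers, from a table of estimated counts in 24 libraries of microglia, the resident macrophages of the brain. All 6 were found among the 15878 genes with values, and all 6 were among the 10219 genes that passed the filter on low counts. None was chosen by its measured values, but the choice was made with earlier results of these data known.

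Microglia had been isolated from brain tissue by flow cytometry, and complementary DNA was amplified by Smart-seq2, a full-length method for small inputs. The 4 groups held 6 libraries each, all at day 28 and all of WT genotype; age, sex and strain are not stated. WD-Exos and ND-Exos libraries came from BCAS mice given exosomes through the tail vein, 100 µg each time at intervals of 3 days. BCAS libraries came from BCAS mice given PBS, and Sham libraries from Sham mice given PBS. BCAS is in this field the narrowing of both common carotid arteries, a model of low blood flow to white matter, so 3 of the 4 groups shared the operation and only Sham lacked it. The series title names foam cells as a source of exosomes. The labels do not spell out ND or WD. Whether each group's 6 samples were 6 separate mice is not stated, so the p-values speak only of the variation among these samples, some of which may be technical.

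Fc gamma receptors bind the constant part of IgG and let a phagocyte take up antibody-coated material. In mice, Fcgr1, Fcgr3 and Fcgr4 encode activating receptors that have no signalling motif of their own and need the Fcer1g chain, both for surface display and for signalling. When the receptors cluster, Src-family kinases phosphorylate the paired tyrosines of the ITAM (immunoreceptor tyrosine-based activation motif) of Fcer1g, and Syk docks there and passes the signal on to actin, calcium and transcription. Fcgr2b encodes the inhibitory receptor, whose ITIM (inhibitory motif) recruits the phosphatase SHIP1, made by Inpp5d. Microglia are known to carry all of these receptors, and interferon gamma is a classic inducer of Fcgr1.

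The coding bases of the signalling motifs show where the opposing signals of the family are written. They are given 5′ to 3′ from the coding strand of GENCODE vM21 transcripts (GRCm38), with the tyrosine codons in capitals. The Fcer1g motif spans coding bases 193 to 237 and the Fcgr2b motif coding bases 949 to 966.
Fcer1g ITAM: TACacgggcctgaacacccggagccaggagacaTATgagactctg
Fcgr2b ITIM: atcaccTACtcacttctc
Of the 5 members searched (Syk was not), Fcer1g was the one whose translation matched the ITAM pattern, with 1 match, and Fcgr1, Fcgr3 and Fcgr4 had 0 each. The looser ITIM pattern matched 1 stretch of Fcgr2b, but also 3 of Fcgr1, 1 of Fcgr4 and 1 of Fcer1g, so a match to that pattern alone is only a description.

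Fcgr2b and Fcgr3 have in common a stretch that short reads cannot always assign. Over 509 aligned coding bases the pair was 96.5% identical, with 18 mismatches and an identical run of 129 bases. The other pairs of receptors were 57.0% to 64.3% identical and had no 50-base window in common. The most alike 150 coding bases of the pair, bases 256 to 405 of Fcgr2b and 241 to 390 of Fcgr3, differed at 1 base, in capitals.
Fcgr2b: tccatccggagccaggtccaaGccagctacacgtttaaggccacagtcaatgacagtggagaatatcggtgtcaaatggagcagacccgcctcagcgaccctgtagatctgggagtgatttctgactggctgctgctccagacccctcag
Fcgr3: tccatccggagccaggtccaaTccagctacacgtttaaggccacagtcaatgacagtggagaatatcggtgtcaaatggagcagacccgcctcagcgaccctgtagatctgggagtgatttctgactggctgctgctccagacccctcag
Fcgr2b and Fcgr3 each had a fractional count in all 24 libraries, and their sum was whole in all 24 (within 0.006 of a whole number), whereas Fcgr1, Fcgr4, Fcer1g and Syk were whole in every library. The sources used here do not state how reads that match both genes were counted. The values of Fcgr2b and Fcgr3 are uncertain to the extent that such reads were divided between them. Of the 50-base windows of all annotated transcripts, 166 were common to both genes, which is 9.58% of 1733 Fcgr3 windows and 2.92% of 5685 Fcgr2b windows. In addition, 155 exon bases of Fcgr2b lie opposite Gm38204 on the other strand; whether counting used strand is not given in the sources used here.

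On GRCm38, with GENCODE vM21 gene models, 4 of the genes lie close together on chromosome 1. Fcgr2b spans chr1:170958617-170976547 on the minus strand, Fcgr4 chr1:171018920-171029761 on the plus strand, Fcgr3 chr1:171051174-171064935 on the minus strand and Fcer1g chr1:171229572-171234365 on the minus strand. Fcgr1 lies apart at chr3:96282909-96293969 on the minus strand, and Syk at chr13:52583173-52648792 on the plus strand. The build behind the counts themselves is not given in the sources used here, and these positions come from the annotation alone.

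The libraries were similar in depth, with 24277722 to 28892423 counts and 8518 to 10802 detected genes. Each of the 11 microglial markers had counts in every library, and their summed level was 33421 to 63244 CPM, that is, counts scaled to library size with TMM factors. Markers of other cells that carry Fc gamma receptors had lower sums. Of the monocyte list, 6 of 8 genes had values, their sum was 0 to 31.9 CPM in WD-Exos, 0.0357 to 19.9 in ND-Exos, 0 to 10.2 in BCAS and 0 to 21.6 in Sham libraries, and Treml4 was at 0 in all 24. The neutrophil list, 6 of 12 with values, summed to 271 to 676 CPM in WD-Exos, 197 to 425 in ND-Exos, 148 to 640 in BCAS and 179 to 328 in Sham libraries. Of that list Csf3r had 148 to 676 CPM and was above 0 in every library, Cxcr2 had at most 1.19 CPM, S100a8, S100a9 and Camp were at 0 in 19, 21 and 23 libraries, and Ltf was at 0 in all 24. Border macrophage markers, 9 of 9 with values, summed to 137 to 321 CPM in WD-Exos and 234 to 875 in ND-Exos libraries. In BCAS and Sham libraries they summed to 73.8 to 581 and 282 to 1480 CPM. Among them Stab1 had 73.6 to 290 CPM and, like Mrc1 and Pf4, was above 0 in every library. Cbr2, Ms4a7, F13a1, Cd163, Cd209f and Lyve1 were at 0 in 1, 4, 5, 10, 16 and 19 libraries. Oligodendrocyte markers stood at 4123 CPM in ND-Exos replicate 3, 5139 in WD-Exos replicate 6 and 7499 in Sham replicate 4, with group medians of 227 to 329 CPM. The part of these cells in the results was not tested.

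Per length, the signalling chain was the most abundant of the 6 transcripts and the kinase the least. Fcer1g averaged 3028 CPM per kb of merged exons over the 24 libraries, rank 13 of 10064 genes with a length. Fcgr3, the main activating receptor transcript of these cells, averaged 1824 CPM per kb, rank 25. Fcgr1 followed with 134 CPM per kb (rank 360), Fcgr2b with 72.6 (rank 653) and Fcgr4 with 47.9 (rank 947). Syk, read from a much longer transcript, averaged 6.84 CPM per kb, rank 3945. On this scale Fcer1g exceeded Fcgr3 in 24 of 24 libraries, by 1.07 to 2.30 times, and Fcgr3 exceeded Fcgr1 in 24 of 24, by 8.08 to 22.7 times. Fcgr1 exceeded Fcgr2b in 23 libraries and Fcgr2b exceeded Fcgr4 in 19, so these neighbours were not ordered in the same way throughout. With the length of the principal transcript in place of merged exons, those counts were 18 and 22. Fcgr4 exceeded Syk in 24 of 24 libraries.

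**Figure D1:**
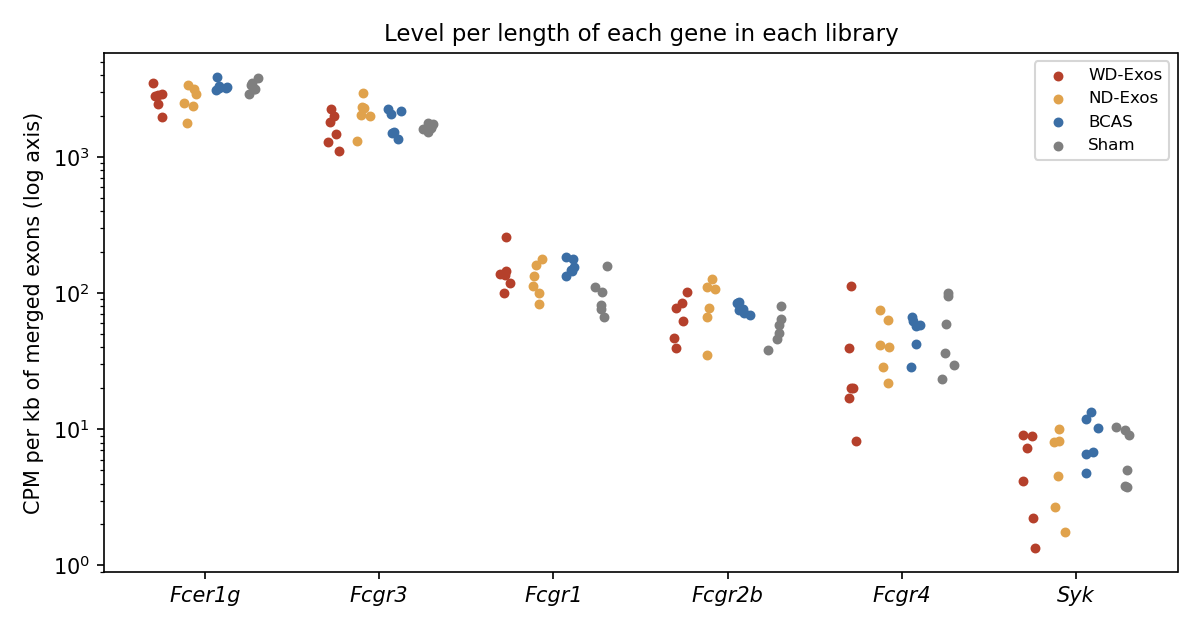
Level per length of the 6 genes in each of the 24 libraries, as CPM per kb of merged exons on a log axis, with points coloured by group in the order WD-Exos, ND-Exos, BCAS, Sham. Fcer1g and Fcgr3 lie between 1115 and 3902 CPM per kb in every library, and Syk lies between 1.34 and 13.5.

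None of the 6 transcripts differed between groups past the threshold, an adjusted p of 0.05 in edgeR's quasi-likelihood test with Benjamini-Hochberg adjustment over all 10219 genes. In BCAS against Sham 0 of 6 were called, beside 0% of all tested genes. In ND-Exos against BCAS 0 of 6 were called, beside 0.0196%; in WD-Exos against BCAS 0 of 6, beside 0%; and in WD-Exos against ND-Exos 0 of 6, beside 0.0196%. Over all 4 groups at once 0 of 6 were called, beside 0.0294%. DESeq2 also called 0 of 6 in each comparison, though it called more genes than edgeR. Its shares are of the genes to which it gave an adjusted p, so their base differs from edgeR's and between comparisons. They were 5.2% of 11646 in BCAS against Sham, 3.99% of 12236 in ND-Exos against BCAS and 3.23% of 12547 in WD-Exos against BCAS. In WD-Exos against ND-Exos the share was 4.05% of 11375, and over the 4 groups 5.34% of 2844. Limma voom called 0 of 6 in each, beside 0.0881% of all genes in BCAS against Sham, 0.00979% in ND-Exos against BCAS and also in WD-Exos against BCAS, 0.0391% in WD-Exos against ND-Exos and 0.616% over the 4 groups. At an unadjusted p under 0.05, edgeR put 1 member past in BCAS against Sham (Fcgr1, beside 6.04% of all genes) and 1 in ND-Exos against BCAS (Fcer1g, beside 4.47%). It put 1 past in WD-Exos against BCAS (Fcer1g, beside 3.71%), 1 in WD-Exos against ND-Exos (Fcgr3, beside 5.33%) and 2 over the 4 groups (Fcgr1 and Fcer1g, beside 6.33%). No member had groups that did not overlap in CPM in any of these pairs, beside 0.372% of all genes in BCAS against Sham, 0.186% in ND-Exos against BCAS, 0.186% in WD-Exos against BCAS and 0.519% in WD-Exos against ND-Exos. The intervals below say which sizes of difference these libraries could still hold. In bulk samples such as these, fewer cells of a type and less RNA per cell cannot be told apart.

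**Figure D2:**
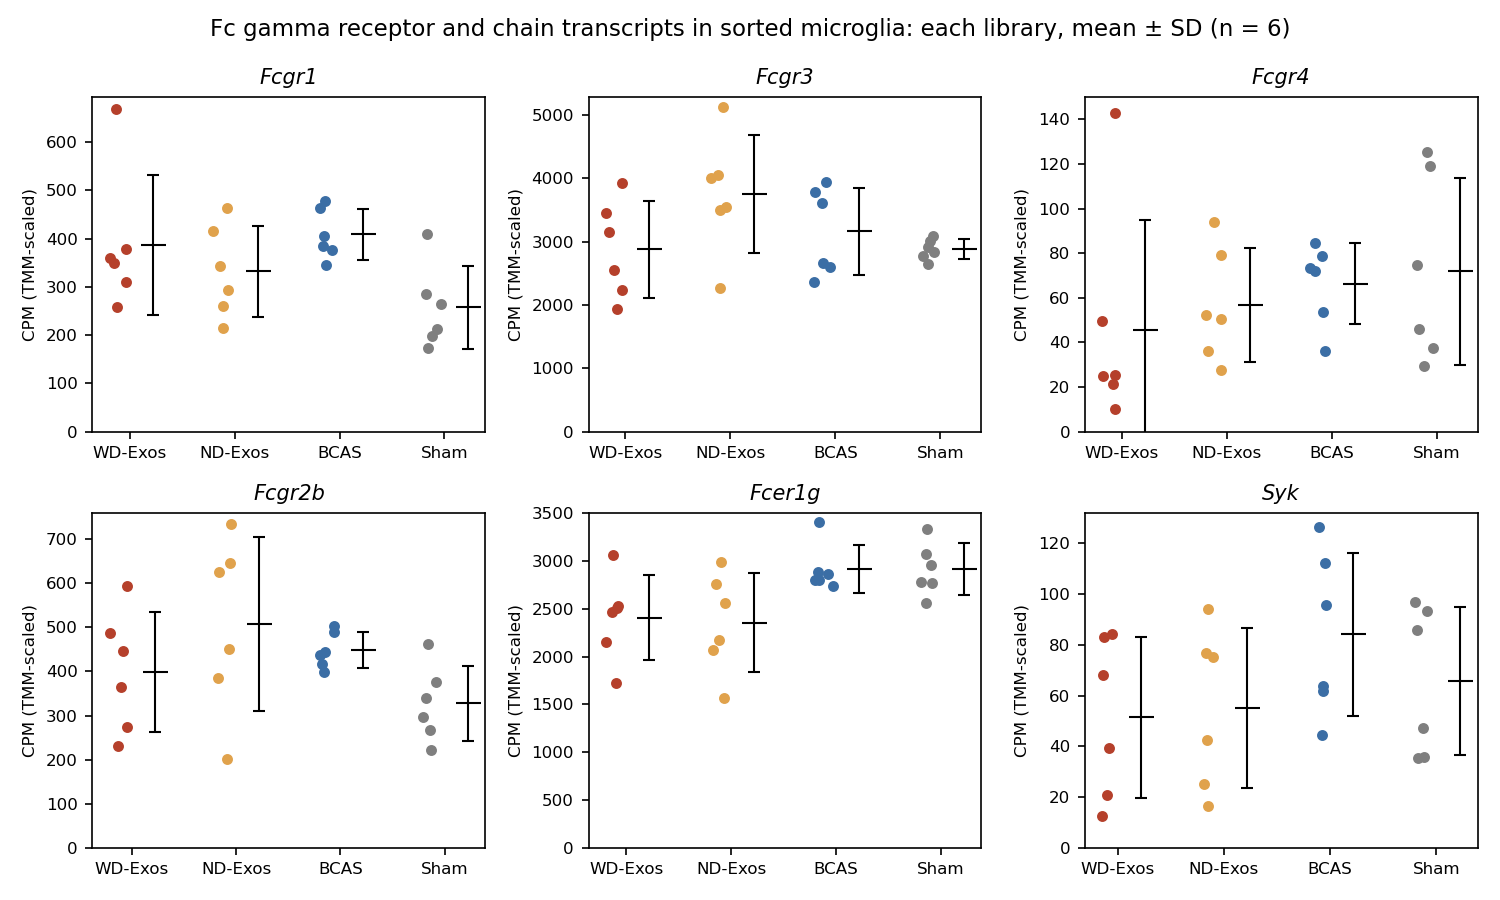
CPM of the 6 genes in each library (points) with the mean ± SD of 6 libraries (bars) in WD-Exos, ND-Exos, BCAS and Sham groups; each vertical axis starts at 0, where the lower bar of Fcgr4 in WD-Exos is cut. The 4 groups overlap in every panel, and Fcgr1 and Fcgr4 each have 1 WD-Exos library far above the other 5.

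Fcgr1, the high-affinity receptor for monomeric IgG2a, had the smallest p-value of the family. Its level was 258 to 670 CPM (median 355) in WD-Exos, 214 to 463 (median 319) in ND-Exos, 345 to 478 (median 395) in BCAS and 174 to 410 (median 239) in Sham libraries. Of the 6 BCAS libraries, 2 lay above every Sham library; the others lay within the range set by Sham replicate 2, the highest Sham library. The mean was 409 ± 51.9 CPM in BCAS and 257 ± 85.4 CPM in Sham (SD, n = 6 each). The log2 fold change of BCAS over Sham was 0.67 (SE 0.22), or 1.59-fold with a 95% confidence interval of 1.15 to 2.18, and edgeR's quasi-likelihood test gave an adjusted p of 0.388. Among all genes this was the p-value of rank 163. DESeq2 gave an adjusted p of 0.0542 for the same difference, the smallest of any member in any setting. Neither exosome group differed from BCAS past the threshold: the log2 fold change was -0.08 (95% interval -0.54 to 0.38) in WD-Exos over BCAS and -0.30 (-0.76 to 0.16) in ND-Exos over BCAS, with adjusted p = 1 in both. In WD-Exos over ND-Exos it was 0.22 (-0.24 to 0.68; adjusted p = 1). Without WD-Exos replicate 6 these became -0.29 in WD-Exos over BCAS and 0.01 in WD-Exos over ND-Exos.

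The promoter of Fcgr1 is shown because the gene is a known interferon gamma target and interferon-response genes are compared below. The 130 bases before its start, chr3:96293970-96294099 on the minus strand (RefSeq, GRCm38.p6), hold a GAS element (TTCNNNGAA) that begins at -109 and, read on the other strand, the core of the PU.1 site (GAGGAA) at -55, both in capitals.
Fcgr1 promoter: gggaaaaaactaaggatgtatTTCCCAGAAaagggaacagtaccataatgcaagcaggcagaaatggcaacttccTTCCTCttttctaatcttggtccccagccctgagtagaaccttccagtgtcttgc
Both strands were searched in windows of 250 bases before to 50 after the start. The GAS letters occurred in 8.3% of 32851 such windows, the PU.1 core in 28.3% and the ISRE core (GAAA, any 2 bases, GAAA) in 3.44%. The Fcgr4 window held the ISRE core at -73 and the PU.1 core at -22, both windows of Fcgr3 held the PU.1 core, and those of Fcgr2b and Fcer1g held none of the 3. Of the 2 Syk windows, 1 held the PU.1 core at -9 and the other held none of the 3. A match describes letters, not binding.

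Over all 24 libraries Fcgr1 was the member with the highest r with the interferon-response genes. In 4 of 4 groups the library with the highest Fcgr1 was also the one with the highest interferon score, the mean log2(CPM + 1) of 25 genes of that list. These were WD-Exos replicate 6 (670 CPM, score 6.78), ND-Exos replicate 5 (463 CPM, score 4.68), BCAS replicate 6 (478 CPM, score 5.75) and Sham replicate 2 (410 CPM, score 5.51). Pearson's r of log2(CPM + 1) with the score was 0.59 over 24 libraries (Spearman's rho 0.56), 0.57 within groups and 0.45 without the 2 libraries of most extreme score. For Fcgr4 the highest library was the one of highest score in 3 of 4 groups, with r = 0.03 over the 24 libraries and 0.30 within groups. For Fcgr2b, Fcgr3, Fcer1g and Syk it was so in 1 of 4 groups each, with r between -0.10 and 0.04 over the 24 libraries and between -0.07 and 0.13 within groups. Other scores gave values of similar size. Within groups Fcgr3 had r = 0.58 with the log2 microglial marker sum (0.36 over the 24 libraries), and Fcgr1 had 0.22 (0.42). With the mean log2(CPM + 1) of 21 immediate early and heat shock genes, r within groups was -0.44 for Fcgr1 and -0.55 for Fcgr3. How many of all genes reach such values was not tested. These are descriptions chosen after the values were seen, over points that share library depth and amplification.

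Fcgr3, a low-affinity activating receptor for immune complexes, was the receptor with the most counts. Its level was 1935 to 3921 CPM (median 2856) in WD-Exos, 2261 to 5131 (median 3776) in ND-Exos, 2368 to 3939 (median 3138) in BCAS and 2652 to 3083 (median 2872) in Sham libraries. The Sham libraries lay close together, with a coefficient of variation of 5.50%, against 21.9% to 26.5% in the other groups. BCAS replicates 3, 4 and 5 lay between 3614 and 3939 CPM and replicates 1, 2 and 6 between 2368 and 2662 CPM. Against Sham, 3 BCAS libraries lay above every Sham library and 2 below every one. In WD-Exos over ND-Exos the log2 fold change was -0.38 (SE 0.17, 95% interval -0.74 to -0.03), with an adjusted p of 0.835 in edgeR's quasi-likelihood test; 2 of 6 WD-Exos libraries lay below every ND-Exos library. In ND-Exos over BCAS it was 0.25 (-0.10 to 0.60), in WD-Exos over BCAS -0.14 (-0.49 to 0.22) and in BCAS over Sham 0.13 (-0.22 to 0.49), each with adjusted p = 1.

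Fcgr4, an activating receptor for IgG2a and IgG2b, was low and uneven. Its level was 10.2 to 143 CPM (median 25.2) in WD-Exos, 27.4 to 94.2 (median 51.5) in ND-Exos, 36.3 to 84.6 (median 72.7) in BCAS and 29.2 to 125 (median 60.3) in Sham libraries. WD-Exos replicate 6 held the highest value of all 24 libraries, while 4 of the 6 WD-Exos libraries lay below every ND-Exos library and below every BCAS library. The log2 fold change was -0.54 (95% interval -1.55 to 0.48) in WD-Exos over BCAS and -0.31 (-1.32 to 0.71) in WD-Exos over ND-Exos, with adjusted p = 1 in both. Without WD-Exos replicate 6 these became -1.32 and -1.09, with adjusted p-values of 0.722 and 0.537, still not past the threshold. In ND-Exos over BCAS the log2 fold change was -0.23 (-1.24 to 0.79) and in BCAS over Sham -0.11 (-1.13 to 0.90).

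Fcgr2b, the single inhibitory receptor of the family, was 230 to 593 CPM (median 405) in WD-Exos, 202 to 733 (median 539) in ND-Exos, 398 to 502 (median 441) in BCAS and 222 to 463 (median 319) in Sham libraries. BCAS libraries lay close together (coefficient of variation 9.12%) and ND-Exos libraries were spread widely (39.0%). The log2 fold change was 0.45 (SE 0.25, 95% interval -0.05 to 0.96) in BCAS over Sham, with an adjusted p of 0.998 by edgeR's quasi-likelihood test. It was 0.18 (-0.32 to 0.68) in ND-Exos over BCAS, -0.17 (-0.67 to 0.34) in WD-Exos over BCAS and -0.35 (-0.85 to 0.16) in WD-Exos over ND-Exos, each with adjusted p = 1.

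Since short reads can match both Fcgr2b and Fcgr3, the pair was also taken as 1 feature. The sum was 3275 ± 895 CPM in WD-Exos, 4258 ± 1104 in ND-Exos, 3608 ± 695 in BCAS and 3206 ± 176 in Sham libraries (SD, n = 6 each). Its log2 fold change was -0.37 in WD-Exos over ND-Exos (adjusted p = 0.865) and 0.17 in BCAS over Sham (adjusted p = 1). Fcgr2b made up 10.6% to 13.4% of the pair in WD-Exos, 8.20% to 15.5% in ND-Exos, 9.91% to 17.2% in BCAS and 6.72% to 13.7% in Sham libraries. The counts of the 3 activating receptors were together 8.51 ± 0.94 times those of Fcgr2b in WD-Exos, 8.88 ± 2.33 times in ND-Exos, 8.16 ± 1.65 times in BCAS and 10.4 ± 2.86 times in Sham libraries. The ranges of all 4 groups overlapped in the share and in this ratio.

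**Figure D3:**
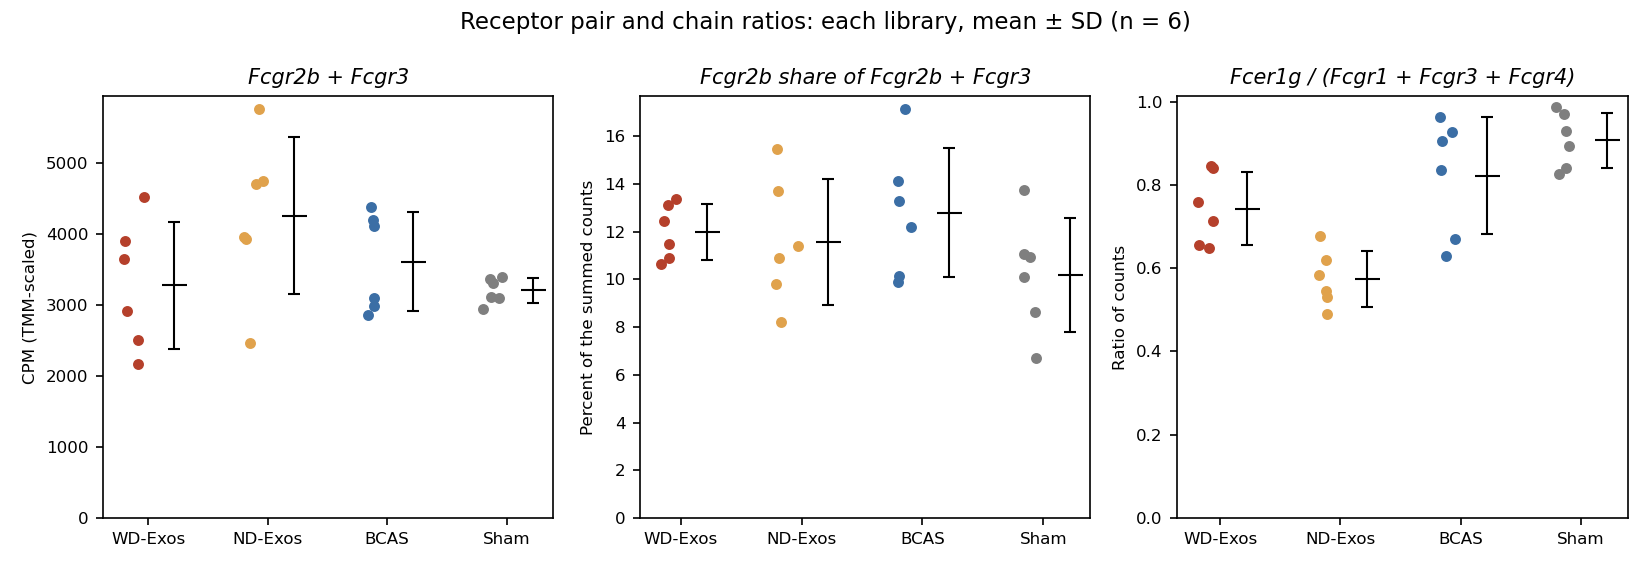
Summed CPM of Fcgr2b and Fcgr3 (left), the share of Fcgr2b in that sum in percent (middle) and the counts of Fcer1g over those of the activating receptors (right), for each library (points) with mean ± SD of 6 libraries (bars), in the order WD-Exos, ND-Exos, BCAS, Sham; each vertical axis starts at 0. The ND-Exos ratios on the right, 0.491 to 0.677, lie below all Sham ratios, 0.827 to 0.988. That difference was not tested, and those groups differ in both the operation and the exosomes.

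Fcer1g, the chain that the activating receptors share, varied least of the 6, with a coefficient of variation of 17.2% over the 24 libraries. Its level was 1724 to 3065 CPM (median 2488) in WD-Exos, 1565 to 2983 (median 2367) in ND-Exos, 2740 to 3411 (median 2831) in BCAS and 2556 to 3336 (median 2870) in Sham libraries. Of 6 libraries each, 5 WD-Exos and 4 ND-Exos libraries lay below every BCAS library. The log2 fold change was -0.28 (SE 0.13, 95% interval -0.55 to -0.002) in WD-Exos over BCAS, with an adjusted p of 1 by edgeR's quasi-likelihood test. In ND-Exos over BCAS it was -0.31 (SE 0.13, 95% interval -0.59 to -0.03), with an adjusted p of 0.903; both comparisons share the BCAS libraries. Between the exosome groups the log2 fold change of WD-Exos over ND-Exos was 0.03 (-0.24 to 0.31), and between BCAS and Sham 0.002 (-0.27 to 0.28). ND-Exos replicate 3, the lowest ND-Exos library in Fcer1g, Fcgr1, Fcgr2b and Fcgr3, also had the lowest microglial marker sum of all libraries. Without it the Fcer1g value of ND-Exos over BCAS was -0.20.

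The chain was also set against its receptors. Counts of Fcer1g were 0.743 ± 0.087 times the summed counts of Fcgr1, Fcgr3 and Fcgr4 in WD-Exos libraries, with a range of 0.648 to 0.845. They were 0.574 ± 0.067 times in ND-Exos (0.491 to 0.677), 0.822 ± 0.140 times in BCAS (0.630 to 0.963) and 0.908 ± 0.066 times in Sham libraries (0.827 to 0.988; SD, n = 6 each). WD-Exos and ND-Exos libraries overlapped, ND-Exos and BCAS libraries overlapped, and BCAS and Sham libraries overlapped, while ND-Exos and Sham libraries did not. ND-Exos against Sham was not among the 4 comparisons, and those groups differ in both the operation and the exosomes. How often ratios of other genes fail to overlap was not tested. Most of the receptor counts were those of Fcgr3, which are uncertain where reads were divided with Fcgr2b. The ratio of Fcer1g to its receptors was formed after the levels had been seen, and its difference between groups was not tested.

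Syk, the tyrosine kinase that docks on the chain, was 12.5 to 84.4 CPM (median 53.8) in WD-Exos, 16.6 to 93.9 (median 58.9) in ND-Exos, 44.7 to 126 (median 79.7) in BCAS and 35.4 to 96.7 (median 66.5) in Sham libraries. In each exosome group 3 of 6 libraries lay below every BCAS library. The log2 fold change was -0.71 (SE 0.46, 95% interval -1.66 to 0.24) in WD-Exos over BCAS and -0.61 (-1.56 to 0.34) in ND-Exos over BCAS, with adjusted p = 1 in both by edgeR's quasi-likelihood test. It was -0.10 (-1.04 to 0.84) in WD-Exos over ND-Exos and 0.36 (-0.59 to 1.30) in BCAS over Sham.

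**Figure D4:**
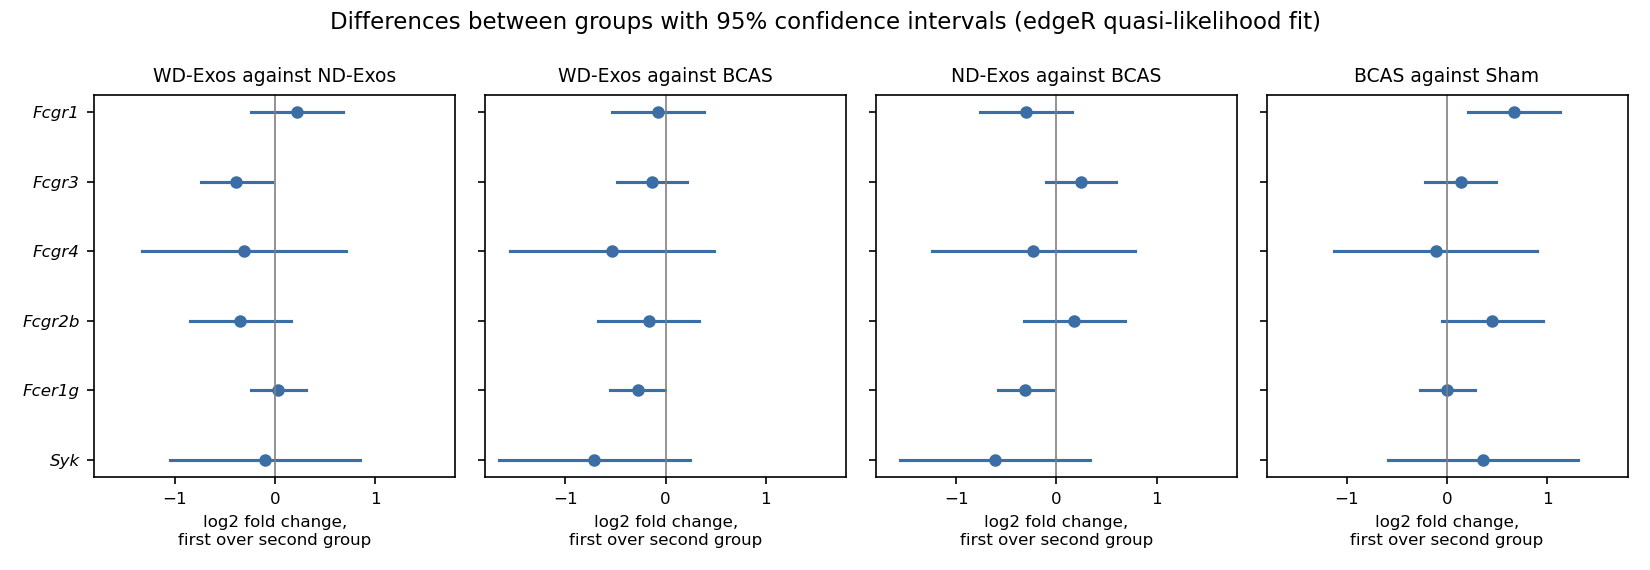
Log2 fold change of each gene (points) with its 95% confidence interval (lines) in WD-Exos against ND-Exos, WD-Exos against BCAS, ND-Exos against BCAS and BCAS against Sham; positive values are higher in the group named first. The intervals of Fcgr4 and Syk are the widest, those of Fcer1g the narrowest, and no gene passed the adjusted threshold.

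As a set, the 6 genes had a median log2 fold change of -0.20 in WD-Exos over ND-Exos (all tested genes -0.01), with 2 above 0 and 4 below. In WD-Exos over BCAS the median was -0.22 (all tested genes -0.02), with 0 above and 6 below, and in ND-Exos over BCAS -0.26 (all tested genes 0.01), with 2 above and 4 below. In BCAS over Sham it was 0.25 (all tested genes -0.003), with 5 above and 1 below. Of all tested genes, 49.2%, 48.9%, 50.4% and 49.9% lay above 0 in these comparisons, in the same order. With detected genes as a covariate, Fcgr1, Fcgr2b and Fcgr3 lay above 0 in WD-Exos over BCAS, as given below. The counts of members above and below 0 were not tested, and those of Fcgr2b and Fcgr3 may share reads. The precision differed within the set: the SE was 0.13 for Fcer1g and up to 0.50 for Fcgr4, against a median of 0.24 over the 1423 genes above 100 CPM.

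Within groups the 3 highest correlations among the members were those between Fcgr2b, Fcgr3 and Fcer1g; over all 24 libraries this order did not hold. Pearson's r of log2(CPM + 1) over the 24 libraries was 0.73 for Fcgr2b with Fcgr3, and 0.72 within groups, values that a division of shared reads could enter. Within groups r was 0.79 for Fcgr3 with Fcer1g and 0.78 for Fcgr2b with Fcer1g, and over all 24 libraries 0.46 for both. Fcgr1 with Fcgr2b had r = 0.54 over the 24 libraries, above those 0.46. Within groups r of Fcgr1 was 0.50 with Fcgr2b, 0.50 with Fcgr3 and 0.51 with Fcer1g. Over the 24 libraries Fcgr4 had r between 0.10 and 0.33 with the other 5, and Syk between -0.14 and 0.21. The genes most alike to Fcer1g, among 6930 compared, were Cst3 (r = 0.85), Tyrobp (0.82), C1qb (0.76), Cox6a1 (0.75) and Cacybp (0.75). For Fcgr3 they were Calm2 (0.90), Actr2 (0.86), Copz1 (0.85), Gnb1 (0.84) and Tmem50a (0.83), and for Fcgr1 Lgals9 (0.72), Ctsc (0.70), Casp8 (0.68), Ikbip (0.67) and Sp110 (0.64). For Fcgr2b they were Capza2 (0.78), Ube2f (0.77), Slc25a5 (0.76), Exosc7 (0.73) and Fcgr3 (0.73), for Fcgr4 Msantd4 (0.73), Rpl36al (0.73), Ptma (0.70), Tma7 (0.70) and Mkks (0.69), and for Syk Zc4h2 (0.78), Iah1 (0.75), Mtch1 (0.64), Lrrk1 (0.63) and Cog4 (0.63). The 24 points share depth, amplification and cell composition.

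Around the receptors, the Src-family kinases that start the signal gave 0 of 6 tested genes past the threshold in every comparison. Lyn, the most abundant of the list, was 576 ± 119 CPM in ND-Exos and 699 ± 83.5 CPM in BCAS libraries (adjusted p = 1). Of the adaptors and effectors next to Syk, 0 of 22 tested genes passed in any comparison. Prkcd, a protein kinase C, averaged 227 ± 99.0 CPM in WD-Exos and 103 ± 39.4 CPM in BCAS libraries, a log2 fold change of 1.14 (SE 0.38; adjusted p = 0.816). Lat2, an adaptor, was 343 ± 105 CPM in BCAS and 247 ± 68.4 CPM in Sham libraries (log2 fold change 0.47, SE 0.19; adjusted p = 0.536).

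The actin and engulfment genes that act at the end of the pathway gave 0 of 20 past the threshold in every comparison. Rac1, a small GTPase that drives the phagocytic cup, averaged 331 ± 86.4 CPM in BCAS and 591 ± 93.8 CPM in Sham libraries, a log2 fold change of -0.83 (SE 0.32; adjusted p = 0.45). Among inhibitory regulators 0 of 18 passed in any comparison. Lair1, an inhibitory collagen receptor, averaged 914 ± 144 CPM in BCAS and 490 ± 72.0 CPM in Sham libraries, a log2 fold change of 0.90 (SE 0.18; adjusted p = 0.131), the smallest adjusted p of that whole comparison. Sirpa, the inhibitory receptor for CD47, averaged 992 ± 264 CPM in WD-Exos and 649 ± 84.8 CPM in ND-Exos libraries, a log2 fold change of 0.61 (SE 0.16; adjusted p = 0.299). Of 10 tested genes for other ITAM chains and receptors, 0 passed. Tyrobp, the other ITAM chain of microglia, averaged 3171 ± 431 CPM in ND-Exos and 4025 ± 652 CPM in BCAS libraries, a log2 fold change of -0.34 (SE 0.12; adjusted p = 0.577), close in size to that of Fcer1g. Of other antibody-binding proteins 4 of 12 could be tested and 0 passed; Fcrls, a microglial Fc receptor-like gene, was 3307 ± 563 CPM in ND-Exos and 2906 ± 776 CPM in BCAS libraries (adjusted p = 1).

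Of the 2 response lists set beside the receptors, only the interferon list held a called gene. Lgals3bp, a secreted galectin-3 ligand, averaged 380 ± 113 CPM in ND-Exos, 1303 ± 526 CPM in BCAS and 1719 ± 831 CPM in WD-Exos libraries. The log2 fold change was -1.78 in ND-Exos over BCAS (SE 0.30, adjusted p = 0.0115 by edgeR's quasi-likelihood test). In WD-Exos over ND-Exos it was 2.18 (SE 0.30, adjusted p = 0.000522 by the same test). In WD-Exos over BCAS it was 0.40 (SE 0.29) and did not pass the threshold. The other 24 tested genes of the list did not pass. The median log2 fold change of the list was 1.35 in WD-Exos over ND-Exos, 0.38 in WD-Exos over BCAS, -1.17 in ND-Exos over BCAS and 0.70 in BCAS over Sham. For Fcgr1 the values were 0.22, -0.08, -0.30 and 0.67 in the same order. These comparisons share libraries. Immediate early and heat shock genes gave 0 of 21 past the threshold in each comparison. The medians of that list had the same signs as those of the interferon list. In the same order they were 1.33, 0.49, -0.81 and 1.46, so this pattern was not particular to the interferon list.

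**Figure D5:**
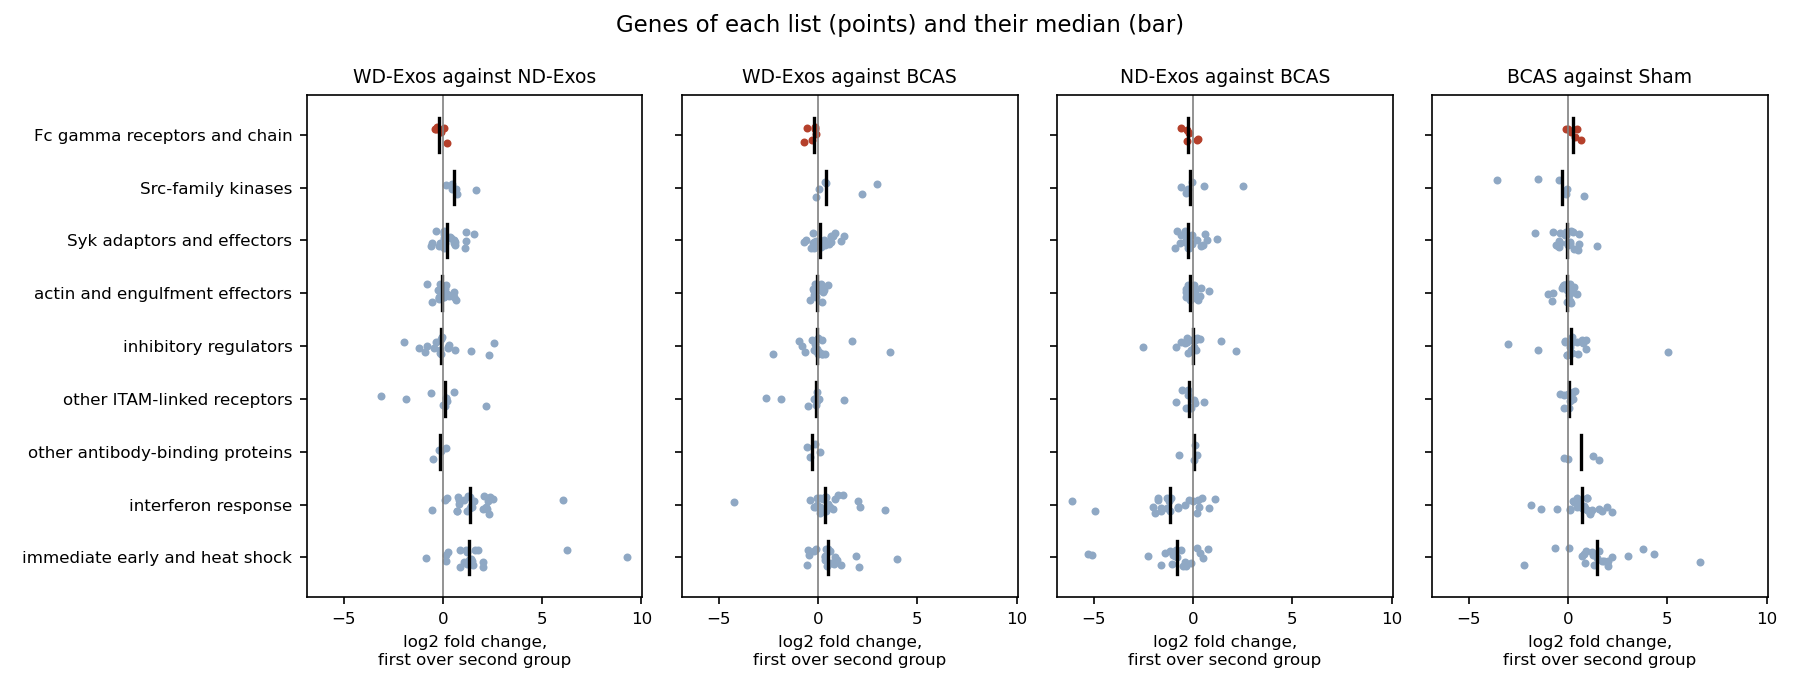
Log2 fold change of each tested gene (points) and the median (bars) for the Fc gamma receptor genes in red and 8 further lists in blue, in WD-Exos against ND-Exos, WD-Exos against BCAS, ND-Exos against BCAS and BCAS against Sham, on a common axis; positive values are higher in the group named first. The receptor genes lie within 1 unit of 0 in every comparison.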

How the data were processed

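Bulk RNA was measured in 24 libraries of sorted microglia. The authors deposited estimated counts per Entrez gene, not scaled between libraries; 76.8% of genes were whole in every library. The aligner, counting tool, genome build and annotation: not given in the sources used here. Of 22064 identifiers, 6186 had no value anywhere and were dropped; symbols came from RefSeq (22002 matched). Rounded counts entered edgeR 4.0.16 (R 4.3.3) with filterByExpr (minimum count 10), TMM (factors 0.936 to 1.17), 1 robust quasi-likelihood fit of 4 group means, Benjamini-Hochberg adjustment over 10219 genes, threshold 0.05. The script was tested on simulated data. Levels are CPM on the TMM scale. Each SE is the absolute log2 fold change divided by the square root of the F statistic. Intervals are 95%, from that SE and a t quantile, and are not adjusted for the number of genes. An interval can therefore leave out 0 where the adjusted p does not pass. Without molecular identifiers, amplified reads do not stand for separate molecules.

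The members, lists and tests were chosen with earlier results of these data known. Named genes are all 6 members, every listed gene past the threshold, genes drawn from the 2 of smallest p in each list and comparison, and the 5 most alike to each member by Pearson's r of log2(CPM + 1), among genes with a mean of at least 10 CPM. A gene that this rule names is not reported here. The interferon score and the ratio of Fcer1g to its receptors were set beside the members after the values were seen. The labels do not state whether replicate numbers pair the samples, and the main fit did not pair them. Lengths came from GENCODE vM21 (98.5% of tested genes had one). Windows of 50 bases stand for a short read, since read length is not given. Sequences were aligned with Biopython 1.88 and figures drawn with matplotlib 3.10.9. Alternatives were RLE scaling, other filters, 2-group fits, limma voom (3.58.1), DESeq2 (1.42.0), a covariate for detected genes, the replicate block, the summed pair and each library left out.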

Additional observations from a re-analysis of the deposited data

Results flagged for a closer look

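Of 24 groups of 6 values (6 genes in 4 groups), 3 held a library far from the other 5. Chance alone gives about 1 in 20 only for independent values with a normal distribution. The CPM need not be so distributed, and the genes share libraries, so an excess over chance is not shown. Fcgr1 stood at 669.7 CPM in WD-Exos replicate 6, with 378 CPM in the next library of that group. Fcgr4 stood at 142.9 CPM in the same library, with 49.7 CPM in the next. That library also had the highest interferon score of all 24, 6.78, and an oligodendrocyte marker sum of 5139 CPM; their part in these values was not tested. Fcer1g stood at 3410.5 CPM in BCAS replicate 3, with 2889 CPM in the next library.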

How the results depend on the processing

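The count of members past the threshold was 0 in all 39 counts under other settings and in all 120 counts with 1 library left out. Of 200 member fold changes under other settings, 191 kept their direction and 9 reversed; with 1 library left out, 559 of 576 kept it and 17 reversed, and none passed the threshold. With no filter the log2 fold change of Fcer1g in BCAS over Sham was -0.00067. Under limma voom, Fcgr4 in BCAS over Sham was 0.059 and Fcer1g in WD-Exos over ND-Exos -0.015. With detected genes as a covariate, BCAS over Sham gave -0.15 for Fcgr3, 0.042 for Fcgr4 and -0.13 for Fcer1g, and WD-Exos over BCAS gave 0.016 for Fcgr1, 0.017 for Fcgr2b and 0.12 for Fcgr3. With 1 library left out, the ranges that crossed 0 were -0.27 to 0.12 for Fcgr4 and -0.047 to 0.048 for Fcer1g in BCAS over Sham, -0.29 to 0.016 for Fcgr1 in WD-Exos over BCAS, and -0.051 to 0.11 for Fcer1g and -0.30 to 0.12 for Syk in WD-Exos over ND-Exos. The cause of these reversals was not tested.

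Samples of the same replicate number did not deviate together (correlation -0.048 to 0.070, 0 of 36 pairs over 0.1, and 5 of 36 best with their own number). Low correlations cannot show whether samples were handled in numbered sets. With the replicate block, the members called stayed at 0 and the log2 fold change of Fcgr1 in BCAS over Sham was 0.68 (adjusted p = 0.523); all genes called over the 4 groups were 2 with the block and 3 without it.

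Counts over all genes depended on the tool. DESeq2 called 461 genes in WD-Exos against ND-Exos, 405 in WD-Exos against BCAS, 488 in ND-Exos against BCAS, 606 in BCAS against Sham and 152 over the 4 groups, against 2, 0, 2, 0 and 3 by edgeR's quasi-likelihood test; voom called 4, 1, 1, 9 and 63. Over the 4 groups, edgeR called 30 with no filter, 10 with a mean of at least 10 CPM and 13 with the covariate, which gave 1 in ND-Exos against BCAS; the 2-group fit gave 1 in WD-Exos against ND-Exos. With 1 library left out, edgeR called up to 32 genes in BCAS against Sham and 42 over the 4 groups, both without BCAS replicate 2, 1 to 3 in ND-Exos against BCAS and 2 to 5 in WD-Exos against ND-Exos. Fcgr4 and Syk, with 266 to 3733 and 325 to 3158 counts per library, had the widest intervals, and the cause was not tested. Their coefficients of variation over the 24 libraries were 58.2% and 49.6%. Small differences in them were not detectable here, and the 1.59-fold value of Fcgr1 in BCAS over Sham did not pass the threshold either.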
